A study of Solanum lycopersicum and Solanum pennellii with 32 samples.

Results

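The data described here are 11 root RNA libraries of the wild tomato Solanum pennellii LA0716 (called Pennellii below), 6 from seedlings at limiting phosphate and 5 from seedlings at sufficient phosphate. They are the Pennellii libraries that held 100000 or more counts, out of 16 Pennellii libraries and 32 libraries in the whole study, which also sampled the cultivated tomato Solanum lycopersicum M82. The limiting group held 3 root tip libraries (replicates 1, 2 and 4) and 3 midsection libraries (replicates 1, 2 and 4). The sufficient group held 2 root tip libraries (replicates 1 and 3) and 3 midsection libraries (replicates 2, 3 and 4). All seedlings, in every group, carried a 35S:TRAP construct, a tagged ribosomal protein under a promoter active in most plant cells, and total RNA was measured rather than RNA bound to the tag. They were 8 to 10 days old, had grown at 25 degrees Celsius with 12 hours of light, and 30 to 40 plants were pooled in each biological replicate. The growth medium either lacked added phosphate (limiting) or contained it (sufficient), and the root tip sample was a segment of 1 cm, the midsection one of about 2 cm. The question was how limiting phosphate changed transcript levels in Pennellii roots, with root position taken into account.

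Phosphate is a macronutrient that soil often supplies poorly. Plants short of it are known to raise phosphate uptake at the root surface, to release phosphate from organic compounds in and outside the cell, to replace part of their membrane phospholipids by lipids without phosphorus, and to alter root growth. The tip holds dividing and elongating cells, and the midsection mature tissue with root hairs and vascular strands. In pieces of whole root, fewer cells of a type and less RNA per cell cannot be told apart. The deposited files identify genes by ID only, so none of these functions can be assigned to the genes below.

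The 11 libraries held 137511 to 13124725 counts. The lowest was limiting midsection replicate 2 and the highest was sufficient midsection replicate 3. A floor of 3 counts corresponded to 0.229 to 21.8 CPM (counts scaled to a common library total), so a gene listed at 0 in the shallowest library may have been present at levels up to the higher of these. Brought to 1 depth of 137431 counts, the libraries showed 6710 to 14020 genes. Among these 11 libraries depth did not separate the phosphate groups beyond their spread (difference in log10 total counts -0.20, exact permutation test within position, two-sided, p = 0.65, adjusted over 3 library measures p = 0.69). Since the libraries were chosen by their totals, this test cannot show that depth was balanced between the groups. The number of genes detected (p = 0.69 in the same exact test, adjusted p = 0.69) did not separate them either, nor did the share of counts in the 10 most abundant genes (p = 0.205, adjusted p = 0.615). Of the other Pennellii libraries, 3 held only 6225 to 46018 counts, and limiting tip replicate 3 and sufficient midsection replicate 1 held identical values, so neither was used.

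2 limiting libraries stood apart from their labelled root position. Each library was scored with 100 genes higher in the tip and 100 genes higher in the midsection, all chosen in M82 libraries at sufficient phosphate. The score is the mean log2 CPM of the former minus that of the latter. In M82 the score also differed with phosphate supply. M82 tips scored 1.67 to 2.20 at limiting and 3.57 to 4.70 at sufficient phosphate. M82 midsections scored -3.50 to -3.26 at limiting and -5.21 to -4.12 at sufficient phosphate. The part of phosphate supply in the Pennellii scores was not tested. In Pennellii, limiting tips scored 0.67, 0.54 and -1.44 in replicates 1, 2 and 4, and sufficient tips 0.35 and 0.19. Limiting midsections scored -0.68, -1.94 and -2.23 in replicates 1, 2 and 4, and sufficient midsections -1.89, -1.85 and -1.74. Limiting tip replicate 4 thus lay below limiting midsection replicate 1 and away from the other 4 tips, and limiting midsection replicate 1 lay nearest to the tips. With 500 genes in each direction these libraries scored -0.17 and -0.05, between the other tips and midsections. Their normalisation factors, 0.63 for limiting tip replicate 4 and 0.82 for limiting midsection replicate 1, were the lowest of the 11. Numbers of calls and the values of the genes that led each comparison are therefore also given without both.

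**Figure D1:**
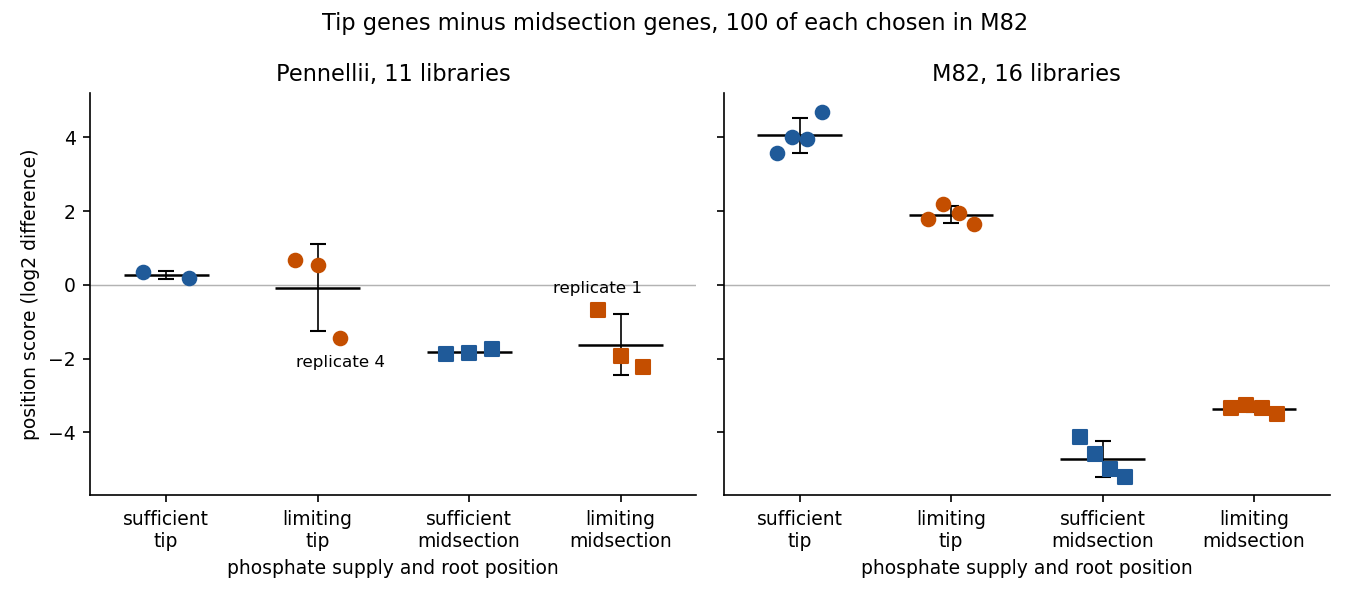
Position score (log2 difference, vertical axis) of each library by phosphate supply and root position, for 11 Pennellii libraries (left) and 16 M82 libraries (right). Points are libraries, horizontal lines are group means and bars are 1 SD. Limiting tip replicate 4 (-1.44) and limiting midsection replicate 1 (-0.68) lie apart from the other Pennellii libraries of their position, while M82 tips and midsections are far apart.

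With position as a covariate, 24 of 15485 genes tested differed between limiting and sufficient phosphate, 15 higher and 9 lower at limiting phosphate, which is 0.155% of the genes tested (edgeR's quasi-likelihood test on the counts, called where the adjusted p was under 0.05). Under another scaling of the libraries (RLE), 36 were higher and 10 lower, and these included all 24. DESeq2 called 20 genes, 8 of them among the 24, and limma-voom 55, 13 of them among the 24. Among these 13, Solyc08g014000.3.1 was called in the opposite direction. Its log2 difference was -0.68 with limma-voom (limma-voom adjusted p = 4.14e-15) and 1.05 with edgeR. An unadjusted p under 0.05 was reached by 741 genes. The median log2 difference of all genes was 0.07, and the common biological coefficient of variation was 1.23, so the level of a typical gene varied between replicates by more than its own mean. Among the 24, the 15 rises ranged from 1.05 to 11.06 on the log2 scale and the 9 falls from -9.38 to -1.89. All 15 were higher and all 9 lower in tips and in midsections when each position had its own coefficient. Over all 15485 genes 50.3% had the same sign in both positions. The 24 were called from the same libraries, so their like signs are no independent support. No gene of the 24 showed a called difference between the positions.

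The rises and falls differed in how evenly the libraries carried them. Limiting and sufficient libraries did not overlap in either position for 8 of the 9 falling genes but for only 4 of the 15 rising genes, and for 1.13% of all genes tested. The highest library of every rising gene was limiting midsection replicate 1 (6 genes), limiting tip replicate 4 (5 genes) or limiting midsection replicate 2 (4 genes). These are the libraries that stood apart in position score and the shallowest one, and their part in the result was not tested. In 6 of the 15 rising genes 1 library held 50% or more of the limiting signal, and in 6 at least 1 limiting library held no count. Of the 9 falling genes, 8 were highest in sufficient midsection replicate 2, but 1 library held 50% or more of the sufficient signal in only 2. Without both libraries apart in position score, 33 genes were called, 19 higher and 14 lower, and 16 of these were among the 24.

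The most reproducible rise was that of Solyc03g117630.1.1, which is named here after its values in both positions together were seen. It stood at 149, 162 and 883 CPM in limiting tips 1, 2 and 4 and at 0 in both sufficient tips. In midsections it stood at 0, 601 and 804 CPM in limiting replicates 1, 2 and 4, and at 0, 0.493 and 0 CPM in sufficient replicates 2, 3 and 4. It was thus abundant in 5 of 6 limiting libraries and at or near 0 in every sufficient library, with limiting midsection replicate 1 as the exception. Summed over libraries, 6018 counts stood against 7, a ratio of 1524 (exact 95% interval 739 to 3792, counting error only). The edgeR adjusted p was 3.23e-22 over both positions, 4.49e-07 in tips and 1.1e-11 in midsections. The gene stayed called in all 11 fits that left out 1 library, with DESeq2 (adjusted p = 2.72e-10), with limma-voom (3.86e-08) and without both libraries apart in position score (edgeR adjusted p = 1.74e-28). It was not called with only the libraries of 500000 or more counts (adjusted p = 0.602). Its deposited counts were fractional in 9 of the 11 libraries, what made them so was not tested, and its level is uncertain.

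Solyc06g062550.4.1 rose over both positions together. It stood at 0.579, 36.4 and 142 CPM in limiting tips 1, 2 and 4 and at 0 in both sufficient tips. In midsections it stood at 1.84, 313 and 53.3 CPM in limiting replicates 1, 2 and 4, and at 0, 0.915 and 0 CPM in sufficient replicates 2, 3 and 4. The limiting libraries thus spread over more than 2 orders of magnitude, and a count was present in only 1 of 5 sufficient libraries. Limiting tip replicate 1 and limiting midsection replicate 1 rested on 3 counts and 1 count, and their levels lie below the 3-count floors of the sufficient tips (3.35 and 2.27 CPM) and of sufficient midsection replicate 2 (6.46 CPM), so their place above these libraries is not shown. Summed counts of 534 and 13 gave a ratio of 72.8 (exact 95% interval 42.2 to 138, counting error only). Deep libraries weigh most in this ratio, unlike in the ratio of mean levels given below. The fitted log2 difference was 8.38, with an edgeR adjusted p of 0.00157. When both libraries apart in position score were left out, the adjusted p was 0.00113. Without limiting midsection replicate 2, the mean limiting level was 256 times the mean sufficient level rather than 498 times, and the adjusted p was 0.0628. The call was also lost with only the libraries of 500000 or more counts (edgeR adjusted p = 0.345) and with replicate number as a block (0.119). In M82 the same gene also rose over both positions together (log2 difference 4.50 ± 1.06 SE, edgeR adjusted p = 0.0312). M82 midsections averaged 48.6 CPM at limiting and 0.301 CPM at sufficient phosphate, while M82 tips averaged only 1.21 and 0.668 CPM.

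Solyc04g054740.3.1 separated the groups most evenly in midsections. Limiting midsections 1, 2 and 4 held 306, 325 and 299 CPM and sufficient midsections 2, 3 and 4 held 59.8, 54.8 and 65.0 CPM. Limiting tips 1, 2 and 4 held 67.9, 20.0 and 773 CPM against 0 and 0.729 CPM in sufficient tips 1 and 3. The midsection groups were each tight, whereas the tip values spread widely, with limiting tip replicate 4 the highest of all 11. The gene was nevertheless not called in midsections (log2 difference 2.37 ± 0.91 SE in edgeR). It was called in tips (9.32 ± 1.63, edgeR adjusted p = 8.09e-05), where limiting tip replicate 4 held 89.7% of the signal. Over both positions the log2 difference was 4.22 ± 0.87 (SE, edgeR adjusted p = 0.00251). It dropped out of the call without sufficient tip replicate 1 (3.28, adjusted p = 0.094) and without sufficient tip replicate 3 (3.30, adjusted p = 0.11). It was 3.77 without both libraries apart in position score (adjusted p = 0.0437). The call was also lost with only the libraries of 500000 or more counts (edgeR adjusted p = 0.997) and with replicate number as a block (0.0963). DESeq2 gave the gene no adjusted p over both positions. In M82 the fitted difference was -2.00 ± 0.80 and not called (adjusted p = 0.363), and the difference between species was not called either (6.11 ± 1.69, adjusted p = 0.181).

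The most reproducible fall was that of Solyc02g086460.3.1, an abundant transcript. Limiting tips 1, 2 and 4 held 218, 520 and 65.8 CPM, and sufficient tips 1 and 3 held 1896 and 1102 CPM. Limiting midsections 1, 2 and 4 held 434, 363 and 385 CPM, and sufficient midsections 2, 3 and 4 held 3485, 1829 and 3810 CPM. Every limiting library lay below every sufficient one, with limiting tip replicate 4 the lowest. The log2 difference was -2.74 ± 0.35 (SE, edgeR adjusted p = 2.2e-11) over both positions, -2.48 ± 0.50 in tips (adjusted p = 0.00273) and -2.95 ± 0.48 in midsections (adjusted p = 4.79e-06). Over both positions it stayed called in all 11 fits with 1 library left out, where it ranged from -3.13 to -2.58. In tips the call was lost without sufficient tip replicate 1 (-2.03, adjusted p = 0.541) and without limiting tip replicate 4 (-2.03, adjusted p = 0.0571), and with 14 libraries (adjusted p = 0.115). Over both positions it was also called by DESeq2 (-2.69, adjusted p = 0.0324) but not by limma-voom (-2.39, adjusted p = 0.961). Neither tool called it within tips (adjusted p = 0.171 and 0.737) or within midsections (0.66 and 1), and the midsection call was also lost with 14 libraries (0.114) and with only libraries of 500000 or more counts (0.137). Over both positions it was -2.56 without both libraries apart in position score (edgeR adjusted p = 9.49e-13). Its deposited counts were fractional in 9 of the 11 libraries, which leaves its level uncertain.

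Solyc10g007290.3.1 behaved alike in midsections. Limiting midsections 1, 2 and 4 held 476, 275 and 346 CPM, and sufficient midsections 2, 3 and 4 held 2802, 1670 and 1674 CPM. Limiting tips 1, 2 and 4 held 426, 502 and 1125 CPM, and sufficient tips 1 and 3 held 1792 and 1173 CPM. The midsection groups were far apart, while in tips limiting replicate 4 came close to sufficient replicate 3. The gene fell in midsections (log2 difference -2.48 ± 0.49, edgeR adjusted p = 0.00137) and over both positions (-1.89 ± 0.37, adjusted p = 0.00117), but was not called in tips (-1.12 ± 0.51, adjusted p = 0.456). The difference between the positions was not called (1.37 ± 0.70, adjusted p = 0.657). Over both positions it stayed called in all 11 fits with 1 library left out, and limma-voom called it (adjusted p = 3.15e-08), while DESeq2 did not (-1.87, adjusted p = 0.159). The call over both positions was also lost with 14 libraries (-1.41, adjusted p = 0.441) and with only libraries of 500000 or more counts (-1.56, adjusted p = 0.0555). The midsection call was lost without sufficient midsection replicate 2 (-2.19, adjusted p = 0.22), with DESeq2 (-2.35, 0.706), with 14 libraries (-2.23, 0.518) and with libraries of 500000 or more counts (-2.02, 0.264). Over both positions the gene stood at -2.23 without both libraries apart in position score (edgeR adjusted p = 6.26e-08).

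Solyc12g088970.1.1 fell in both species. Limiting tips 1, 2 and 4 held 1.35, 10.9 and 3.46 CPM, and sufficient tips 1 and 3 held 187 and 300.2 CPM. Limiting midsections 1, 2 and 4 held 44.3, 144 and 52.9 CPM, and sufficient midsections 2, 3 and 4 held 406, 291 and 275 CPM. Limiting libraries lay below sufficient ones in both positions, most clearly in tips. The log2 difference was -5.56 ± 1.17 in tips (SE, edgeR adjusted p = 0.00783) and -3.66 ± 0.79 over both positions (adjusted p = 0.00592). The tip value was -5.38 without both libraries apart in position score (adjusted p = 0.00244). The tip call was lost without sufficient tip replicate 1 (-5.86, adjusted p = 0.0597), sufficient tip replicate 3 (-5.18, adjusted p = 0.191), limiting tip replicate 1 (-5.06, adjusted p = 0.093) or sufficient midsection replicate 3 (-5.55, adjusted p = 0.0566). In M82 the log2 difference over both positions was -3.73 ± 0.80 (adjusted p = 0.0116), and the species difference was 0.09 ± 0.65 (adjusted p = 1).

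Among genes whose libraries did not overlap, the largest falls by fitted value belonged to lower transcripts. Solyc01g094910.3.1 held 0, 0.607 and 0 CPM in limiting tips 1, 2 and 4 and 1.02 and 68.5 CPM in sufficient tips 1 and 3. It held 0, 0 and 1.46 CPM in limiting midsections 1, 2 and 4 and 130, 74.1 and 79.3 CPM in sufficient midsections 2, 3 and 4. Midsections were far apart, but sufficient tip replicate 1 rested on 1 count. Summed counts of 1755 at sufficient and 8 at limiting phosphate gave a ratio of 124 (exact 95% interval 62.7 to 287, counting error only). The fitted log2 difference was -6.99 ± 1.62 (SE, edgeR adjusted p = 0.0185). The call was made in only 5 of the 11 fits with 1 library left out, where the log2 difference ranged from -7.98 to -5.78 and the adjusted p reached 0.432, without sufficient tip replicate 3. The log2 difference was -6.62 without both libraries apart in position score (adjusted p = 0.0437). The call was also lost without any 1 of sufficient midsections 2, 3 and 4, limiting midsection 1 and limiting tip 1.

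Solyc01g111350.3.1 held 5.40, 1.21 and 0.865 CPM in limiting tips 1, 2 and 4 and 14.3 and 86.7 CPM in sufficient tips 1 and 3. It held 0, 0 and 10.6 CPM in limiting midsections 1, 2 and 4 and 472, 58.6 and 123 CPM in sufficient midsections 2, 3 and 4. The groups did not overlap in either position, and sufficient midsection replicate 2 alone held 62.6% of the sufficient signal. The log2 difference was -4.94 ± 1.14 (SE, edgeR adjusted p = 0.0181). Without that library it was -4.28 (adjusted p = 0.363), and the call was also lost without sufficient midsection replicate 4 (adjusted p = 0.0897), sufficient tip replicate 3 (0.203) or limiting midsection replicate 1 (0.0876). It was -4.39 when both libraries apart in position score were left out (edgeR adjusted p = 0.0211).

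**Figure D2:**
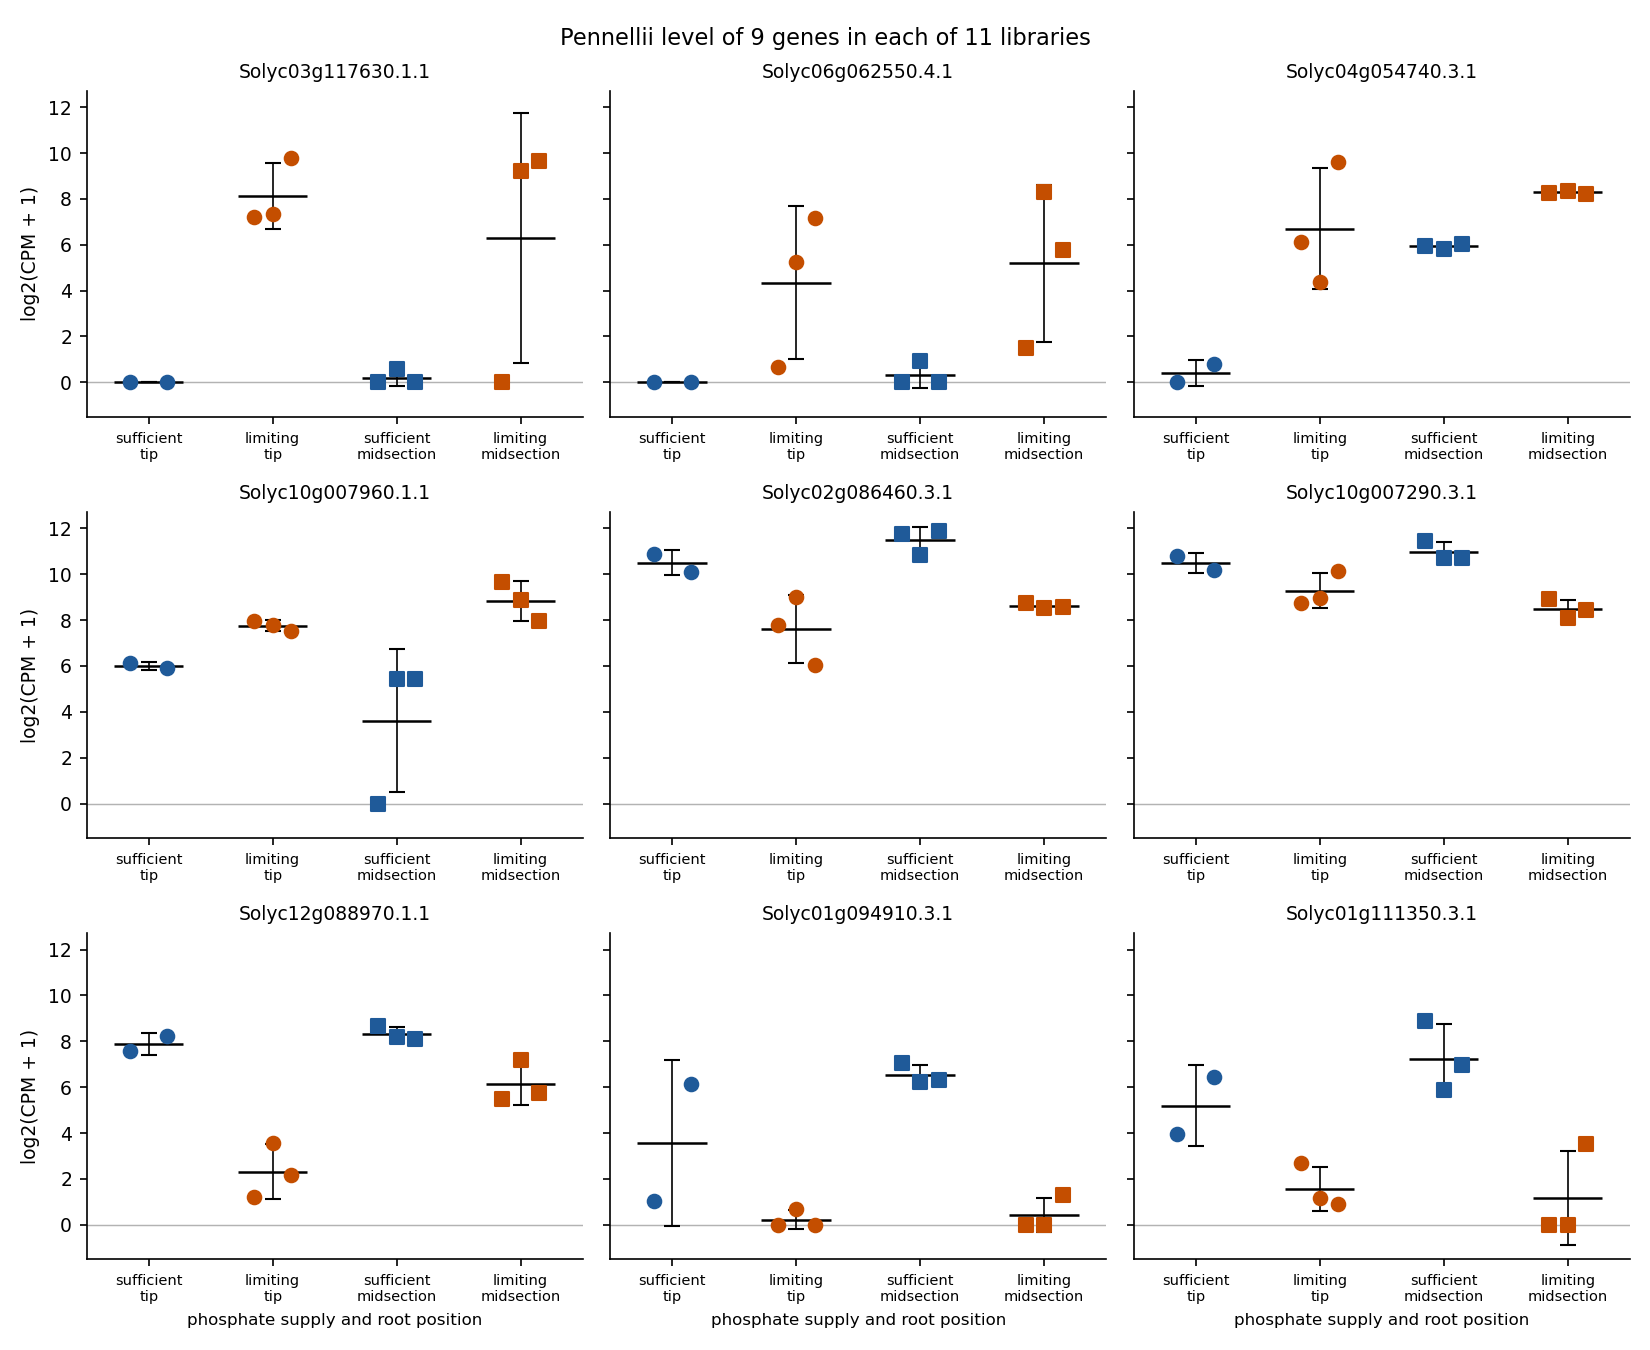
Level of 9 genes, as log2(CPM + 1), in each of the 11 Pennellii libraries by phosphate supply and root position. Points are libraries in order of replicate number, horizontal lines are group means and bars are 1 SD. The 4 genes of the first row and the start of the second rose at limiting phosphate and the other 5 fell. In Solyc03g117630.1.1 limiting midsection replicate 1 is at 0, and in Solyc10g007960.1.1 sufficient midsection replicate 2 is at 0.

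Of the 24 genes, only 3 stayed called in all 11 fits that left out 1 library, namely Solyc03g117630.1.1 among the rising genes and Solyc02g086460.3.1 and Solyc10g007290.3.1 among the falling genes. In at least 8 of these fits, 5 of 15 rising and 4 of 9 falling genes were called, and none of the 24 changed sign in any of them. Losing limiting midsection replicate 4 or limiting tip replicate 2 kept 23 and 22 of the 24 calls. Losing sufficient midsection replicate 4 kept 9, sufficient midsection replicate 2 kept 10, and sufficient midsection replicate 3, sufficient tip replicate 3 and limiting midsection replicate 1 each kept 11. Losing limiting tip replicate 1 kept 12. The total number of calls ranged from 10, without sufficient midsection replicate 2 or 4, to 43, without limiting midsection replicate 2, and was 37 without limiting tip replicate 4. The total was 12 without limiting midsection replicate 1, 13 without limiting tip replicate 1 or sufficient midsection replicate 3, and 15 without sufficient tip replicate 3.

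**Figure D3:**
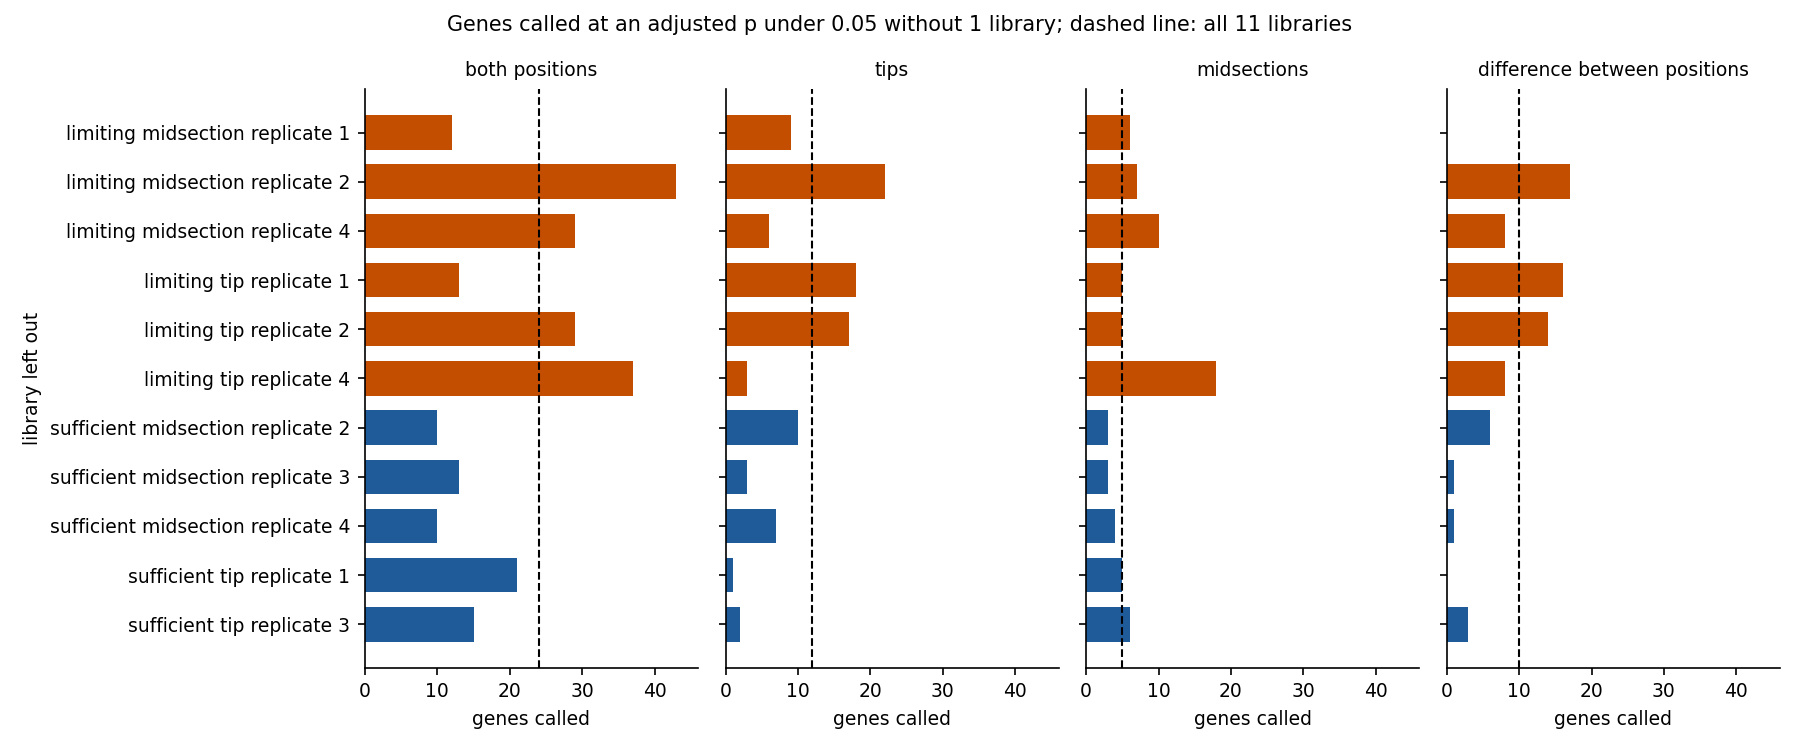
Number of genes called (horizontal axis, adjusted p under 0.05) when the library named on the left is left out, for both positions together, tips, midsections and the difference between positions. The dashed line gives the number with all 11 libraries, which is 24, 12, 5 and 10. Calls over both positions range from 10 to 43.

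For tips, 3 limiting libraries against 2 sufficient ones in a fit of all 11 libraries that gave each group its own coefficient, 12 genes were called, 10 higher and 2 lower at limiting phosphate, or 0.0775% of the genes tested. Limiting and sufficient tips did not overlap for 7 of the 12, beside 17.7% of all genes, and an unadjusted p under 0.05 was reached by 1588 genes. The median log2 difference of all genes in tips was 0.35 (0.25 under RLE scaling in edgeR, 0.07 with no low-count filter and 0 with DESeq2). Limiting tip replicate 4, the library apart in position score, was the highest library of 10 of the 12 genes, and in 6 of the 12 a single library held 90% or more of the signal. Solyc10g006900.3.1 shows the pattern. It held 14.5, 6.68 and 825 CPM in limiting tips 1, 2 and 4 and 0 in both sufficient tips, with limiting midsections at 0 to 16.6 CPM and sufficient midsections at 0 to 25.9 CPM. The tip counts of 1039 against 0 make the limiting level at least 102 times the level of 3 counts over the sufficient tips (edgeR adjusted p = 0.0215), and 953 of those counts came from limiting tip replicate 4. Without that library the fitted log2 difference was 8.27 in place of 12.90 (adjusted p = 0.519), and the call was also lost without sufficient tip replicate 1 (adjusted p = 0.541), sufficient tip replicate 3 (0.321) or sufficient midsection replicate 3 (0.0566). With both libraries apart in position score left out it was 8.40 (adjusted p = 0.613).

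The number called in tips was 3 without limiting tip replicate 4, 1 without sufficient tip replicate 1, 2 without sufficient tip replicate 3, 3 without sufficient midsection replicate 3, 6 without limiting midsection replicate 4, 7 without sufficient midsection replicate 4 and 22 without limiting midsection replicate 2. Without both libraries apart in position score it was 6. Solyc03g117630.1.1 lost its tip call without limiting midsection replicate 2 (adjusted p = 0.0862), a library that enters the tip comparison through the shared estimate of spread, and also with limma-voom (0.0574) and with only the libraries of 500000 or more counts (0.448).

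Within midsections, 3 libraries against 3, 5 genes were called, 3 higher and 2 lower, or 0.0323% of the genes tested. Under RLE scaling 11 were higher and 3 lower. The groups did not overlap for 3 of the 5, beside 9.3% of all genes, and 546 genes had an unadjusted p under 0.05. The median log2 difference of all genes was -0.15 (-0.03 under RLE scaling). The calls rose to 10 without limiting midsection replicate 4 and to 18 without limiting tip replicate 4, and fell to 3 without sufficient midsection replicate 2 or 3. Both falling genes and 1 rising gene have been described. Solyc10g007960.1.1 is the rising gene whose midsection libraries did not overlap. It held 815, 469 and 248 CPM in limiting midsections 1, 2 and 4, and 0, 41.7 and 42.4 CPM in sufficient midsections 2, 3 and 4. In tips it held 251, 218 and 183 CPM at limiting phosphate and 68.6 and 58.3 CPM at sufficient phosphate. Every limiting library lay above every sufficient one, and its deposited counts were whole in all 11 libraries. The log2 difference was 4.13 ± 0.90 in midsections (edgeR adjusted p = 0.0137), 1.78 ± 0.95 in tips (adjusted p = 0.504) and 3.05 ± 0.66 over both positions (adjusted p = 0.00656). The midsection call was lost without sufficient midsection replicate 2 (3.60, adjusted p = 0.777), replicate 3 (4.50, 0.201) or replicate 4 (4.52, 0.202), or limiting midsection replicate 1 (3.62, 0.393), and narrowly without both libraries apart in position score (3.61, 0.0512). In M82 the gene did not pass the test (0.00 ± 0.58, adjusted p = 1).

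The calls in tips and in midsections shared 2 genes, Solyc03g117630.1.1 and Solyc02g086460.3.1. The comparison over both positions uses the same libraries as the comparisons within each, so their calls are not independent.

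A difference of the phosphate effect between tips and midsections was called for 10 genes, 0.0646% of those tested, 6 with a higher effect in tips and 4 with a higher effect in midsections. Under RLE scaling these numbers were 8 and 10, and an unadjusted p under 0.05 was reached by 1179 genes. The median difference over all genes was 0.50 on the log2 scale (0.28 under RLE scaling). In all 10 a single library held 50% or more of the signal, limiting tip replicate 4 in 6 genes and limiting midsection replicate 1 in 2. Solyc03g123410.1.1 stood at 654 CPM in limiting tip replicate 4, at 21.3 CPM in sufficient midsection replicate 2 and at 0 to 0.729 CPM in the other 9 libraries. Solyc01g110360.3.1 stood at 537 CPM in limiting tip replicate 4 and 109 CPM in sufficient midsection replicate 2, and at 0 to 12.5 CPM elsewhere. The former held no count in 6 of the 11 libraries and the latter in 4. Solyc04g054475.1.1 stood at 845 CPM in limiting midsection replicate 1 and 17.4 CPM in sufficient tip replicate 1, and at 0 to 3.96 CPM elsewhere. Solyc06g082560.2.1 stood at 275 CPM in limiting midsection replicate 1 and 96.3 CPM in sufficient tip replicate 1, and at 0 to 10.9 CPM elsewhere. Their highest libraries are the pair that lay apart in position score, whose part in these values was not tested.

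The edgeR adjusted p of these genes was 0.0266, 0.0266, 1.07e-05 and 0.0165 in the order given. Leaving out 1 library left Solyc04g054475.1.1 uncalled only without sufficient tip replicate 1 (adjusted p = 1). In the fit without limiting midsection replicate 1 it was not tested. Of the other three, Solyc03g123410.1.1 and Solyc01g110360.3.1 each lost their call in 7 of the fits that left out 1 library, and Solyc06g082560.2.1 in 5. Without limiting midsection replicate 1 or sufficient tip replicate 1, 0 genes were called by edgeR. The number was 1 without sufficient midsection replicate 3 or 4, 3 without sufficient tip replicate 3, 6 without sufficient midsection replicate 2, 16 without limiting tip replicate 1 and 17 without limiting midsection replicate 2. Without both libraries apart in position score, 1 gene was called, and it was none of the 10.

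The response was also read over genes chosen in other libraries. In the 16 M82 libraries, 173 of 18275 genes were called, 138 higher and 35 lower at limiting phosphate, or 0.947% of those tested. Of the 138, 117 were tested in Pennellii, where 72 were higher and 45 lower at limiting phosphate, with a median log2 difference of 0.27 against 1.67 in M82. Of the 35, 32 were tested in Pennellii, where 12 were higher and 20 lower, with a median of -0.32 against -1.05 in M82. Over all 14877 genes tested in both species, 52.5% were higher and the median was 0.06. The median of the first list depended on single libraries. With 1 library left out it ranged from 0.10, without sufficient tip replicate 1 or limiting midsection replicate 1, to 0.38, and it was 0.04 without both libraries apart in position score, when the median over all genes tested was -0.06. In Pennellii 2 of the 117 genes were called higher and 2 of the 32 called lower, beside 13 called higher and 7 called lower among all 14877.

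By position, 85 of the 117 genes (72.6%) were higher in limiting tips, beside 57.8% of all 14877 genes. The median of the 117 there was 0.80, where the median over all genes was 0.35. In midsections 62 of the 117 (53.0%) were higher, beside 44.7% of all genes. The median of the 117 there was 0.05, where that of all genes was -0.15. Of the 117 genes, 43 were called higher in the midsection and 25 higher in the tip in M82 at sufficient phosphate, and the part of root position in these medians was not tested.

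Each library was also given a single score, the mean log2 CPM of the genes called up in M82 minus that of the genes called down. Limiting tips scored 0.23, 0.11 and -0.02 in replicates 1, 2 and 4, and sufficient tips -1.43 and -0.94. Limiting midsections scored -0.49, -0.81 and -0.98, and sufficient midsections -1.37, -1.35 and -1.50. Limiting libraries lay above sufficient ones within both positions without overlap, by 1.29 in tips and 0.65 in midsections on average. The 2 lists did not contribute alike. In tips the genes called up in M82 averaged 5.63 log2 CPM at limiting and 4.997 at sufficient phosphate, and those called down 5.52 and 6.18. In midsections the genes called up averaged 5.16 at limiting and 5.38 at sufficient phosphate, the opposite of their M82 direction and with overlapping libraries. Those called down averaged 5.92 and 6.78, also with overlapping libraries. The midsection difference in this score, which uses no normalisation factors, thus came from the genes called down. In the edgeR fit, which uses them, 19 of these 32 genes were lower in limiting midsections, beside 8217 of all 14877 genes. The median log2 difference of the 32 there was -0.22, beside -0.15 over all genes. Limiting tip replicate 4 lay with the other limiting tips in this score. In M82, whose libraries chose the genes, limiting libraries scored 0.94 to 1.52 and sufficient ones -3.06 to -1.84.

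**Figure D4:**
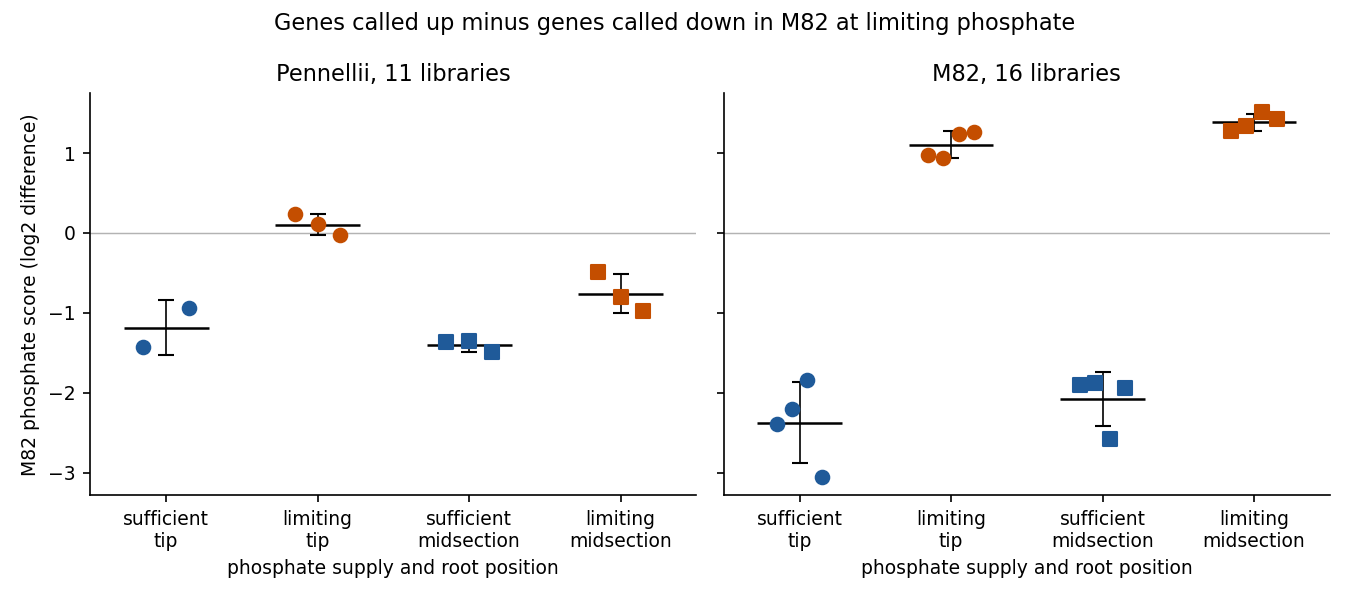
M82 phosphate score (log2 difference, vertical axis) of each library by phosphate supply and root position, for 11 Pennellii libraries (left) and 16 M82 libraries (right, which chose the genes). Points are libraries, horizontal lines are group means and bars are 1 SD. Within each root position every limiting Pennellii library lies above every sufficient one, by 1.29 in tips and 0.65 in midsections on average.

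Of the 24 genes called in Pennellii, 20 were tested in M82. Of 13 rising genes, 5 had a higher fitted level at limiting phosphate in M82 and 2 of these were called. Of 7 falling genes, 5 had a lower fitted level in M82 and 2 of these were called. None was called in the opposite direction. Among all M82 genes 0.947% were called, and 49.6% of the genes tested in both species had the same sign in each. For Solyc03g117630.1.1 all 16 M82 libraries held no count, so a difference between species could not be estimated. Pennellii reads were mapped to the M82 sequence, so levels are not compared between the species, only differences within each.

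The difference between the Pennellii and M82 phosphate effects was called for 7 of 20557 genes, or 0.0341%, and in all 7 the effect was lower in Pennellii. Under RLE scaling 6 were higher and 9 lower, and an unadjusted p under 0.05 was reached by 1939 genes. The count was 4 without sufficient midsection replicate 2, 11 without sufficient tip replicate 3 or limiting tip replicate 1, 15 without limiting tip replicate 4, 18 without sufficient tip replicate 1 and 39 without limiting midsection replicate 4. In 5 of the 7 neither species passed the test by itself.

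Solyc05g011970.3.1 rose in M82 and did not pass the test in Pennellii. M82 held 294, 369, 384 and 371 CPM in limiting tips and 312, 388, 344 and 351 CPM in limiting midsections. At sufficient phosphate M82 held 47.9, 22.9, 14.6 and 5.48 CPM in tips and 10.2, 2.0, 8.38 and 9.75 CPM in midsections, all below the limiting values. Pennellii held 11.4, 2.43 and 5.19 CPM in limiting tips and 7.17 and 2.91 CPM in sufficient tips. In midsections it held 18.4, 12.5 and 20.4 CPM at limiting and 10.7, 18.2 and 19.2 CPM at sufficient phosphate, so the Pennellii groups overlapped in both positions. The log2 difference was 4.68 ± 0.44 in M82 (SE, edgeR adjusted p = 2.03e-05) and 0.21 ± 1.54 in Pennellii (adjusted p = 1), and the species difference was -4.46 ± 0.71 (adjusted p = 0.000514). It stayed called under all 23 alternatives run for it, between -4.79 and -4.24.

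Solyc02g086460.3.1, which fell in Pennellii, did not pass the test in M82. M82 limiting tips held 746, 795, 911 and 1237 CPM and sufficient tips 971, 804, 711 and 365 CPM. M82 limiting midsections held 870.0, 1710, 1056 and 1195 CPM and sufficient midsections 1309, 694, 797 and 436 CPM, so the M82 groups overlapped in both positions. The M82 log2 difference was 0.47 ± 0.21 (SE, edgeR adjusted p = 0.456), and the species difference was -3.20 ± 0.43 (adjusted p = 2.72e-05). It stayed called under the 22 alternatives run for it, between -3.70 and -2.88. Its fractional counts kept it out of the alternative that leaves such genes out.

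**Figure D5:**
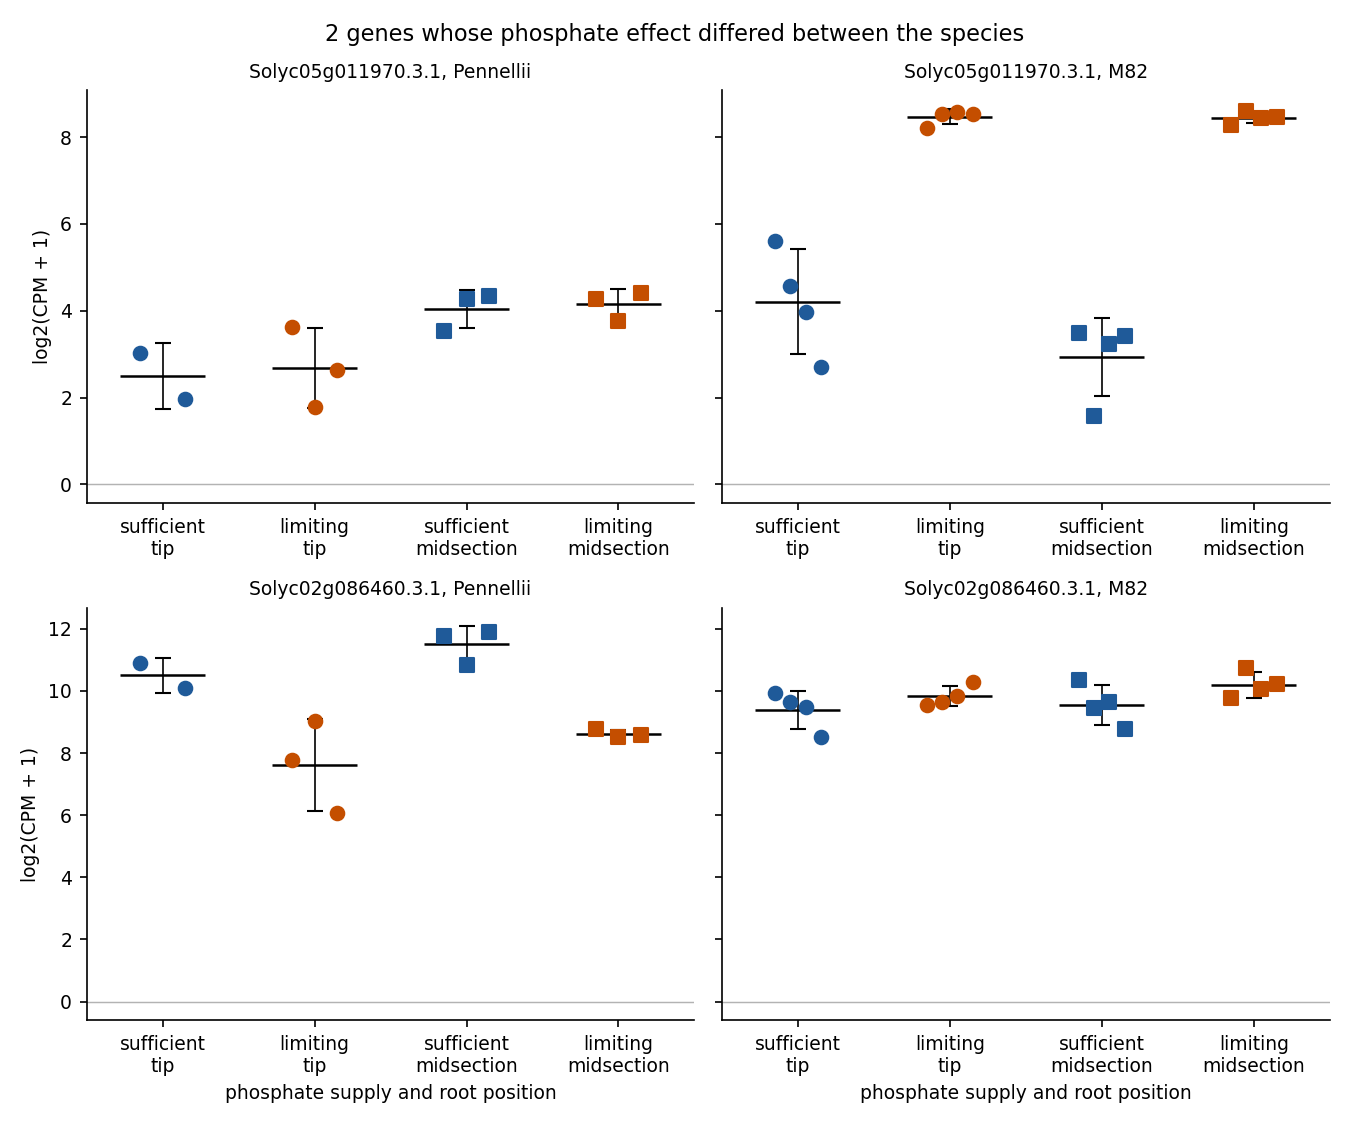
Level of 2 genes, as log2(CPM + 1), in 11 Pennellii libraries (left) and 16 M82 libraries (right) by phosphate supply and root position. Points are libraries, horizontal lines are group means and bars are 1 SD. Solyc05g011970.3.1 is higher in every limiting than in every sufficient M82 library and overlaps between the Pennellii groups, and Solyc02g086460.3.1 is lower in every limiting than in every sufficient Pennellii library and overlaps between the M82 groups.

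Across genes, the fitted Pennellii and M82 effects of the 14877 genes tested in both were nearly uncorrelated (Pearson's r = 0.02), and 49.6% had the same sign. Among the 1335 genes with a mean log2 CPM of 7 or more r was -0.02, and 49.6% had the same sign. This is a description across genes, which are not independent replicates.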

How the data were processed

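Per the labels' protocols, total RNA was made into BrAD-seq libraries (strand-specific, reading transcript 3' ends) and sequenced as single reads of 50 bases. The deposited tables, 1 per species, hold the authors' estimated counts for 34843 gene IDs, and 5.51% of the values in the 11 libraries are fractional. The submitters' processing notes name Bowtie 1.2.2, FastQC, limma and edgeR. No genome build, annotation or source of the fractional values is given in the sources used here. Pennellii reads were mapped to M82, as the Pennellii table's name says. All 32 columns matched a sample label (0 columns unused). The series' design text calls the replicates biological.

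Of the 34843 IDs, 0 matched the RefSeq gene table available, so genes have no names, functions, coordinates or sequences here, and the lists of phosphate genes and cell type markers could not be filled. The libraries, lists and tests were chosen with earlier results of these data known.

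Estimated counts were rounded, so a gene at 0 can hold an estimate below 0.5. The test was the quasi-likelihood test of edgeR 4.0.16 under R 4.3.3 (robust, TMM scaling, filterByExpr with its minima at 10 counts and a sum of 15, Benjamini-Hochberg adjustment over all genes of a fit, threshold 0.05). The 6 comparisons were the phosphate effect with position as a covariate in Pennellii and in M82, the effect in Pennellii tips, in midsections and their difference (1 fit of 4 groups), and the difference between species. CPM values use TMM-scaled totals with no length correction, since a 3' method does not scale with length. A standard error is the size of the log2 difference divided by the square root of F, and is no measure of precision where a group is near 0. For such genes summed counts are compared, with exact 95% intervals or with 3 counts as a floor, which cover counting error only. Scores use log2 CPM with a prior count of 2.

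Named genes are, in each comparison, the called genes with the largest rises and falls, up to 2 each, whose libraries do not overlap in any position compared (not required for differences between positions or species). Solyc03g117630.1.1 over both positions is a departure. Alternatives were RLE scaling, DESeq2 1.42.0, limma-voom (limma 3.58.1), other filters, a replicate block, other depths and sets of libraries, and each library left out. The test was also run on counts simulated from the fit's own means and spread. Such counts hold no library that stands apart, so that run cannot show how the test behaves with such libraries.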

Additional observations from a re-analysis of the deposited data

Results flagged for a closer look

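In 38 sets of 4 to 10 libraries, 12 held a library farther from the others than Dixon's 95% limit. Most sets were levels of genes named for their large fitted differences, so the number cannot be set against a chance rate. Position scores of tips included -1.44 for limiting tip replicate 4, and those of midsections -0.679 for limiting midsection replicate 1. The other 10 are levels of single genes as log2(CPM + 1). Among limiting libraries, limiting tip replicate 4 stood apart at 9.36 for Solyc03g123410.1.1 and 9.07 for Solyc01g110360.3.1, and limiting midsection replicate 1 at 9.72 for Solyc04g054475.1.1 and at 0 for Solyc03g117630.1.1. Among sufficient libraries, midsection replicate 3 stood apart at 0.938 for Solyc06g062550.4.1 and 0.578 for Solyc03g117630.1.1, where the others were at 0. Sufficient midsection replicate 2 stood apart at 0 for Solyc10g007960.1.1 and at 4.48 for Solyc03g123410.1.1. Sufficient tip replicate 1 stood apart at 1.02 for Solyc01g094910.3.1 and at 4.20 for Solyc04g054475.1.1.

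The test of the difference between positions was passed by Solyc10g006900.3.1 (log2 difference 13.5), Solyc03g123410.1.1 (16.3), Solyc01g110360.3.1 (15.4), Solyc04g054475.1.1 (-16.7) and Solyc06g082560.2.1 (-16.1). The highest library of each was limiting tip replicate 4 or limiting midsection replicate 1. For Solyc06g082560.2.1 the fitted effect was larger in tips (-10.5), where all 3 limiting libraries held no count, than in midsections (5.55). The test of the difference between species was passed by Solyc02g086460.3.1 (-3.20) and Solyc05g011970.3.1 (-4.46).

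Among the 3 shallow Pennellii libraries that entered no comparison, sufficient tip replicate 2 held Solyc01g111350.3.1 at 2070 CPM, which rests on 95 counts in a library of 46018. The 2 deeper sufficient tips held it at 14.3 and 86.7 CPM.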

How the results depend on the processing

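Numbers of genes called moved by more than 1.5 times under many settings, and the cause was not tested. Over both positions (24 called) they were 46 under RLE scaling, 15 with no low-count filter, 55 with limma-voom, 6 without genes holding a fractional count, 40 with all 14 distinct libraries and 3 with libraries of 500000 or more counts. In tips (12) they were 299 with DESeq2, 0 with limma-voom (1212 genes at an unadjusted p under 0.05), 7 without fractional genes, 92 with 14 libraries and 6 thinned to 1 depth. In midsections (5) they were 14 under RLE, 13 with DESeq2, 48 with limma-voom, 1 without fractional genes, 16 with 14 libraries, 0 with 500000 or more counts (299 at an unadjusted p under 0.05), 16 thinned and 16 in a fit of midsections alone. For the difference between positions (10) they were 18, 46, 0 and 5 under RLE, DESeq2, limma-voom and without fractional genes (754 at an unadjusted p under 0.05 in limma-voom), 35 with 14 libraries, 2 with 500000 or more counts and 1 thinned. For the difference between species (7) they were 15 under RLE, 131 with no filter, 334 with DESeq2, 12 with limma-voom, 2 without fractional genes, 3 with 14 libraries and 18 thinned. In M82 (173) they were 506 with DESeq2 and 628 with limma-voom.

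Settings chosen after seeing the data left out the 2 limiting libraries apart in position score, giving 6 calls in tips, 16 in midsections, 1 for positions and 18 for species, or the 3 limiting libraries highest in the rising genes, giving 11 in midsections, 4 for positions and 19 for species. With 1 library left out, calls ranged from 10 to 43 over both positions, 1 to 22 in tips, 3 to 18 in midsections, 0 to 17 between positions and 4 to 39 between species. Apart from Solyc08g014000.3.1 with limma-voom, no named gene changed direction in a setting that tested it. Not all were tested in each setting (Solyc03g123410.1.1 in 14 and Solyc04g054475.1.1 in 16). The median of the M82 list of rising genes stayed between 0.04 and 0.55.

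With the replicate block, 9 genes were called over both positions, 5 in tips, 3 in midsections and 0 for the difference between positions (390 at an unadjusted p under 0.05 in edgeR). Deviations of same-numbered libraries correlated at -0.02 to 0.22 (median 0.03) and over 0.1 in 3 of 10 pairs. Those of differently numbered libraries correlated at -0.12 to 0.096 (median -0.01) and over 0.1 in 0 of 35 pairs. Deviations sum to 0 within a group, so a positive value for 1 pair forces lower values in others. Limiting midsection replicate 1 correlated at 0.12 with sufficient tip replicate 1 and at -0.12 with sufficient tip replicate 3. The 2 sets of pairs are therefore not independent, and the contrast between them is partly built in. The labels do not say that a number marks a shared batch, and whether the numbers pair the samples was not tested. Depth limits low genes most, since 3 counts were 21.8 CPM in limiting midsection replicate 2.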
